A study of Ovis aries with 95 samples.

Results

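HSD11B1, FBXO32, NFKBIA and VDUP1, an older name of TXNIP, were described in the brain of the sheep fetus and newborn lamb around the rise of cortisol before birth. The members were the gene probes that the array annotation named with these symbols, 6 of 15008 probes and 4 of 14347 genes or accessions. HSD11B1 and VDUP1 had 2 probes each, and FBXO32 and NFKBIA 1 each. All 6 probes passed the filter on dim probes in every region. The genes were chosen with results of these data in view, from the difference between 145 d of gestation and 1 d after birth, so that difference is described below without a test.

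RNA of the cortex, brainstem, hippocampus and hypothalamus was hybridised to 95 one-colour arrays, from untreated fetuses at 80, 100, 120, 130 and 145 d of gestation and from lambs on the first day after delivery. Each of the 24 groups had 4 arrays, except the hippocampus at 100 d, which had 3. The 100 d and 145 d groups each spanned a few days, no ewe was in labor, and each age included a set of twins that the labels do not mark. No group was given or deprived of cortisol, and no cortisol value was analysed here. The methods give 4 animals per age for all regions, and the labels do not say which arrays came from the same animal. The tests treated arrays as independent, so p-values measure the spread between these samples. Those between regions, where arrays of an age share animals, may be too small. Since each age included twins, those within a region may be too small as well.

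Cortisol acts through an intracellular receptor, the product of NR3C1, and cells set their own supply of it. The HSD11B1 enzyme regenerates active cortisol from inactive cortisone inside the cell, and the HSD11B2 enzyme does the reverse. The other 3 genes are known to respond to glucocorticoids in many tissues, though none responds to them alone. FBXO32 (atrogin-1) is the substrate-binding part of a ubiquitin ligase first known from wasting muscle, NFKBIA encodes the inhibitor that holds NF-kB in the cytoplasm, and VDUP1 encodes a protein that binds thioredoxin and restrains glucose uptake.

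The arrays read each transcript through a probe of 60 bases. The NFKBIA probe is printed whole and the first 30 bases are given of the HSD11B1 and VDUP1 probes, because the results below are the brightness of these spots. None is printed for FBXO32. The letters are those of the array design, and no base is marked.

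NFKBIA probe: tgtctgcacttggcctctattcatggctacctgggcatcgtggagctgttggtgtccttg
HSD11B1 brighter probe: atgtcgcattggctttaacttcagttcatt
HSD11B1 dimmer probe: ctgcgaaattgacagtatccatagatataa
VDUP1 edge probe: tacagaattctgcatttctgacactgatca
VDUP1 inner probe: gatgtaagctaaaactggtctactatgtct

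Every level is a log2 value of intensity after background correction and quantile normalization, where a difference of 1 is a doubling, and errors are SD over arrays. Levels of different genes were not compared, since probes differ in brightness. Between 59.5% and 88.5% of gene spots were well above background on an array. The 6 probes were well above background on every array, except each HSD11B1 probe on 1 brainstem array and the dimmer HSD11B1 probe on 1 hippocampus array, and none was saturated. The samples were bulk tissue, so fewer cells of a type and less RNA per cell cannot be told apart.

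Position on the array touched several values. The VDUP1 edge probe and the NFKBIA probe lie in rows 2 and 6, near one corner. The median log2 difference of the spots around the VDUP1 edge probe from the other arrays of the group was beyond 0.5 on 13 of 23 hippocampus and 14 of 24 hypothalamus arrays, between -1.53 and 1.12, and on 0 cortex and 1 brainstem arrays. Around the NFKBIA probe it was beyond 0.5 on 12 hippocampus and 10 hypothalamus arrays, from -1.44 to 1.18. The VDUP1 inner probe, in row 149, had 1 such hippocampus and 0 such hypothalamus arrays. Separately, the brainstem array 1 d after birth with replicate number 4 had a dim area of 3225 gene spots that held the brighter HSD11B1 probe and the VDUP1 inner probe. Spots inside the dim area lay at a median of -1.84 and those outside at 0.53 relative to the other arrays of that group. Values are therefore also given without that array, with the inner VDUP1 probe alone, or after subtracting the local median of the neighbouring spots (local correction, chosen after seeing the data), where these differ.

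**Figure D1:**
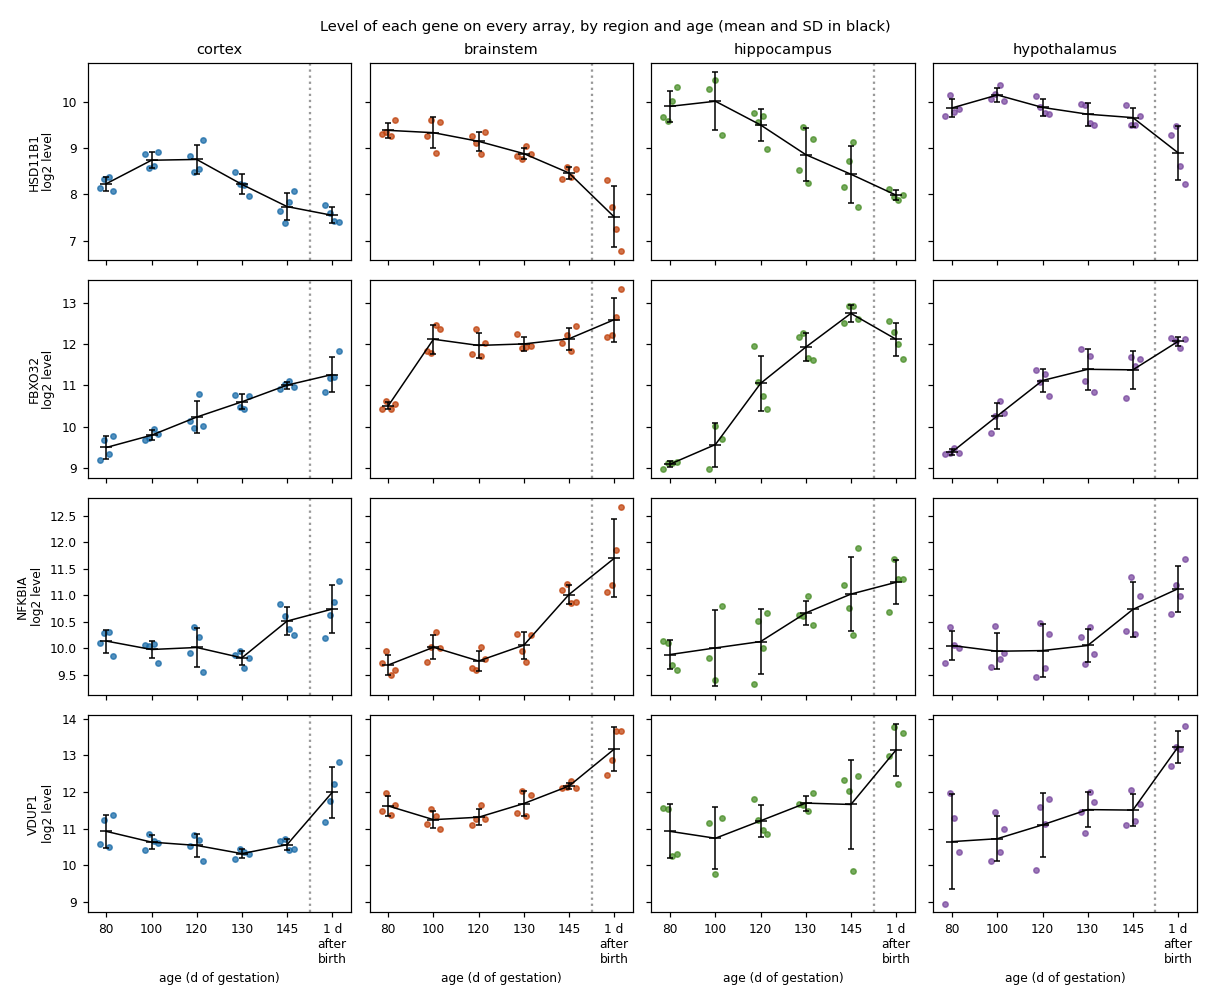
Log2 level (vertical axis) of the 4 genes in rows and the 4 regions in columns at each age (horizontal axis), with 1 point per array and the mean and SD of each group in black. The dotted line marks birth. FBXO32 rose in every region during fetal life, from a lowest group mean of 9.09 to a highest of 12.75, both in the hippocampus, and VDUP1 had its 3 highest group means, 13.15 to 13.23, after birth.

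HSD11B1, the cortisol-regenerating enzyme, differed between regions and changed over fetal life in 3 of them. Averaged over 80 to 130 d its level was 9.90 ± 0.23 in the hypothalamus (n = 16), 9.54 ± 0.63 in the hippocampus (n = 15), 9.18 ± 0.28 in the brainstem (n = 16) and 8.48 ± 0.34 in the cortex (n = 16). The regions differed (adjusted p = 1.3e-16), as did 75.8% of all genes. All 6 pairs of regions differed, from 1.26-fold between hypothalamus and hippocampus (adjusted p = 0.0238) to 2.68-fold between hypothalamus and cortex (adjusted p = 8.12e-17). With the 75th percentile scaling the pair of brainstem and hippocampus did not pass (adjusted p = 0.11). The levels in cortex were the lowest of the 4 regions at every age before birth. Of 844 named genes measured in all regions, those with group means most like HSD11B1 were CHID1 (r = 0.887), CDK2 (r = 0.869) and RPS6 (r = 0.835), as a description over 24 means that share libraries.

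The course of HSD11B1 in the cortex went up and then down. The 4 cortex arrays read 8.13, 8.33, 8.38 and 8.08 at 80 d and 8.86, 8.58, 8.60 and 8.90 at 100 d, with no overlap. They read 8.82, 8.47, 8.54 and 9.17 at 120 d, 8.49, 8.23, 8.19 and 7.95 at 130 d and 7.65, 7.39, 7.84 and 8.06 at 145 d. The arrays of 120 d and 145 d did not overlap, and the gene changed over fetal life in cortex (adjusted p = 4.66e-05). Of all genes, such a change was called for 41.4% in cortex and 31.6% in brainstem, but for 2.45% in the hippocampus and 11.2% in the hypothalamus. The difference between the means at 130 d and 80 d was -0.02 ± 0.15 (SE, adjusted p = 0.95).

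In the brainstem HSD11B1 went from 9.38 ± 0.16 at 80 d to 8.46 ± 0.12 at 145 d (n = 4), and the change over fetal life passed (adjusted p = 0.0115). The arrays read 9.30, 9.36, 9.25 and 9.61 at 80 d, 8.84, 8.76, 9.04 and 8.87 at 130 d and 8.34, 8.58, 8.37 and 8.55 at 145 d, and each of these sets lay below the one before it without overlap. From 80 to 130 d the difference was -0.50 ± 0.22 (SE, adjusted p = 0.111, or 0.0311 without the array that held the dim area). The brighter probe alone did not pass over fetal life (adjusted p = 0.184). That fit takes its spread from all 6 ages, and the newborn arrays of this probe, of which 1 had it in the dim area, had an SD of 1.24. Its fetal levels went from 10.39 ± 0.21 at 80 d to 9.47 ± 0.17 at 145 d without overlap.

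In the hippocampus the arrays read 9.67, 9.58, 10.02 and 10.32 at 80 d, 8.53, 9.46, 8.24 and 9.20 at 130 d and 8.15, 8.71, 9.13 and 7.74 at 145 d. The 145 d mean was 2.76-fold below the 80 d mean, and the change over fetal life passed (adjusted p = 0.024). The 130 d arrays were all below the 80 d arrays, and the means differed by -1.04 ± 0.32 (SE, adjusted p = 0.086, or 0.0417 with the local correction). The change over fetal life no longer passed without replicate 3 or 4 of 80 d, 1 or 2 of 100 d, or 1 or 4 of 145 d, left out singly, with adjusted p from 0.0501 to 0.0777.

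In the hypothalamus HSD11B1 stayed between group means of 9.66 and 10.14 before birth, and no fetal change passed (adjusted p = 0.512). The change from 80 to 130 d was not shown to differ between regions (adjusted p = 0.1, or 0.0297 with the local correction and 0.0206 for the dimmer probe alone).

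FBXO32, the ubiquitin ligase gene, rose in all 4 regions from 80 to 130 d. It passed the test over fetal life in every region, with adjusted p of 9.01e-07 in the hippocampus, 4.61e-06 in the cortex, 7.24e-06 in the hypothalamus and 1.25e-05 in the brainstem. From 80 to 130 d it rose 2.16-fold in cortex (log2 1.11 ± 0.19 SE, adjusted p = 5.82e-05), 2.83-fold in brainstem (1.50 ± 0.21, adjusted p = 2.47e-05), 7.16-fold in hippocampus (2.84 ± 0.29, adjusted p = 8.85e-06) and 4.01-fold in hypothalamus (2.01 ± 0.23, adjusted p = 7.19e-06). Between these ages 18.3% of cortex genes were called higher and 21.5% lower, 9.75% and 13.1% of brainstem genes, 1.52% and 1.69% of hippocampus genes, and 4.32% and 5.9% of hypothalamus genes. FBXO32 was the only member called. Within single slides the difference was 0.98 to 1.18 in cortex, 1.41 to 1.73 in brainstem, 3.12 in both hippocampus slides that held the 2 ages, and 1.35 to 2.55 in hypothalamus.

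The size of the FBXO32 rise differed between regions (adjusted p = 0.000753), as 9.22% of all genes did. Its timing also varied. In the brainstem the arrays read 10.44, 10.61, 10.43 and 10.55 at 80 d and 11.84, 11.80, 12.47 and 12.38 at 100 d, a difference of 1.62 on the log2 scale, and the later fetal means lay between 11.97 and 12.13. In the hippocampus the 80 d arrays read 8.98, 9.12, 9.12 and 9.14 and the 100 d arrays 8.98, 10.02 and 9.69, which overlapped. There the 120 d arrays read 11.96, 11.07, 10.75 and 10.42, the 130 d arrays 12.17, 12.26, 11.67 and 11.62, and the 145 d arrays 12.51, 12.94, 12.92 and 12.62. Most of the brainstem difference thus lay before 100 d and most of the hippocampal difference after it, which was not tested as such.

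The cortex and hypothalamus lay between these courses. The hypothalamus arrays of FBXO32 read 9.34, 9.36, 9.48 and 9.37 at 80 d, 9.84, 10.26, 10.62 and 10.33 at 100 d and 11.38, 11.07, 11.28 and 10.74 at 120 d, each set above the one before, and the later fetal means were 11.39 and 11.38. The cortex means were 9.49 ± 0.28, 9.79 ± 0.12, 10.23 ± 0.39, 10.60 ± 0.18 and 11.01 ± 0.08 from 80 to 145 d (n = 4). Over 80 to 130 d FBXO32 was highest in the brainstem at 11.65 ± 0.72 (n = 16), 3.08-fold above cortex (adjusted p = 6.81e-20), 2.37-fold above hippocampus (adjusted p = 5.5e-14) and 2.16-fold above hypothalamus (adjusted p = 4.74e-12). The hippocampus and hypothalamus differed by -0.13 ± 0.12 (SE, adjusted p = 0.409).

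**Figure D2:**
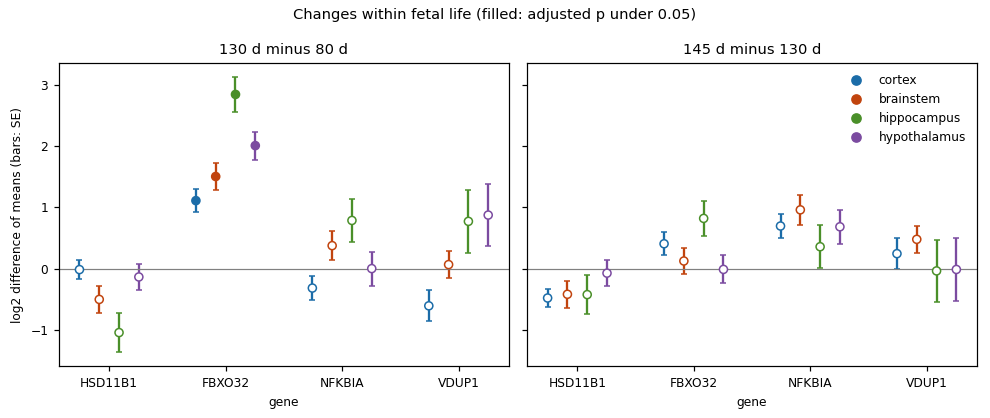
Log2 difference between ages (vertical axis) for each gene (horizontal axis) and region (colours), with SE, for 130 d minus 80 d on the left and 145 d minus 130 d on the right. Filled points passed an adjusted p of 0.05. Only the 4 FBXO32 points on the left are filled, at 1.11, 1.50, 2.84 and 2.01, and no point on the right is.

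Among the 844 named genes, the 3 with group means most like those of FBXO32 were CRYAB (r = 0.93), a small heat shock protein abundant in oligodendrocytes, NKX6.1 (r = 0.928), a transcription factor of neural progenitors and oligodendrocytes, and TF (r = 0.917), transferrin, an oligodendrocyte product in brain. These are descriptions over 24 means that share libraries. NKX6.1 was not well above background on any cortex array at 80 and 100 d or on any hippocampus array at 80 d, so its low end is a bound. TF and CX32 (GJB1, a gap junction protein) were the 2 markers of oligodendrocytes, the myelin-forming cells, of a list of 7 that could be found on the array. Both rose from 80 to 130 d in all 4 regions, TF by 4.81 ± 0.47, 3.70 ± 0.22, 5.66 ± 0.87 and 5.87 ± 0.34 (SE) in the order cortex, brainstem, hippocampus, hypothalamus. The mean TF level was 8.94, 13.77, 9.73 and 10.95 at 80 d in the same order and 15.22, 17.51, 16.53 and 16.97 at 145 d. CX32 rose by 0.59 ± 0.10, 3.76 ± 0.26, 1.23 ± 0.26 and 1.82 ± 0.20. The part of these cells in the FBXO32 rise was not tested.

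**Figure D3:**
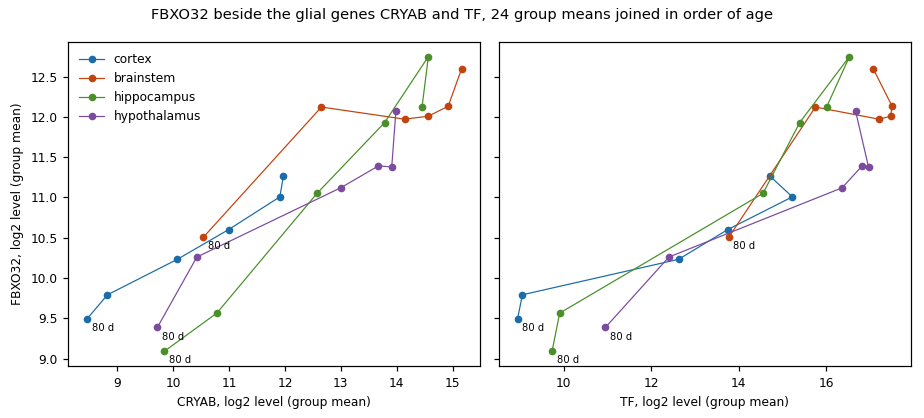
Group mean of FBXO32 (vertical axis, log2) against that of CRYAB on the left and TF on the right (horizontal axes, log2), with 1 point per group joined in order of age within each region, starting at 80 d. FBXO32 and both genes are lowest at 80 d in every region, and Pearson's r over the 24 means is 0.93 for CRYAB and 0.917 for TF.

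NFKBIA, the NF-kB inhibitor gene, had its highest fetal mean at 145 d in every region, and all 145 d arrays lay above all 130 d arrays in cortex and brainstem. In the brainstem the arrays read 9.72, 9.94, 9.49 and 9.58 at 80 d, 10.27, 9.95, 9.74 and 10.26 at 130 d and 11.10, 11.22, 10.85 and 10.88 at 145 d. No 145 d array overlapped with the earlier ages shown, and the gene changed over fetal life there (adjusted p = 0.00117). The difference from 130 to 145 d was 0.96 ± 0.24 (SE), or 1.94-fold, with an adjusted p of 0.0518. It passed without the dim area (adjusted p = 0.0301), with the local correction (adjusted p = 0.012) and without the array that held the dim area (adjusted p = 0.00243). It also passed in 5 other settings, while the remaining settings gave adjusted p up to 0.152. The NFKBIA probe lay outside the dim area, so leaving that area out did not change its own levels. The array that held the dim area was a newborn one, outside this difference. The fit takes its spread from all ages, and the newborn NFKBIA arrays had an SD of 0.74. Between 130 and 145 d a rise was called for 0.493% of brainstem genes and 0.0465% of cortex genes, and for 0% in hippocampus and hypothalamus, where limma gave 196 and 961 genes at an unadjusted p under 0.05 in either direction. A fall was called for 0.767%, 0.124%, 0% and 0%. None of the 4 members was called between these ages in any region by limma, while 3 cortex, 2 brainstem, 1 hippocampus and 1 hypothalamus members had an unadjusted p under 0.05. These 145 d arrays are also the reference of the difference at birth.

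In the cortex the NFKBIA arrays read 9.87, 9.95, 9.63 and 9.82 at 130 d and 10.83, 10.61, 10.37 and 10.24 at 145 d, without overlap. The difference was 0.69 ± 0.19 (SE, adjusted p = 0.192), and the change over fetal life lay at an adjusted p of 0.0511, which moved to between 0.0361 and 0.0484 in 7 other settings that kept every array. The difference was 0.36 ± 0.35 in hippocampus and 0.68 ± 0.28 in hypothalamus, and the arrays of the 2 ages overlapped in both. There the shifts of neighbouring spots were as large as these differences, and their part was not tested. After the local correction the differences were 0.49 ± 0.28 and 0.82 ± 0.26, and no fetal change of NFKBIA passed in either region.

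The level of NFKBIA was not shown to differ between regions over 80 to 130 d (adjusted p = 0.275), with region means from 9.88 ± 0.26 in the brainstem (n = 16) to 10.18 ± 0.53 in the hippocampus (n = 15). This changed with the processing. With the scanner's processed signal in place of the background-corrected mean signal, scaled to its 75th percentile in place of quantile normalization, the regions differed (adjusted p = 1.36e-05), with cortex minus hippocampus at -0.76 and cortex minus hypothalamus at -0.54, where the median over all genes was -0.12 and -0.08. The 3 genes with the most similar group means were CD5 (r = 0.798), RILPL2 (r = 0.783) and FGFR2 (r = 0.777). FGFR2 had means from 6.69 to 7.47, close to the lowest spot well above background, which read up to 6.74 on an array.

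VDUP1, the thioredoxin-binding gene, was the least steady measurement in the hippocampus and hypothalamus. Its edge probe read 11.81, 11.72, 7.02 and 11.76 on the hippocampus arrays of 145 d, where the inner probe read 12.83, 12.33, 12.65 and 13.13. In the hypothalamus at 80 d the edge probe read 6.70, 11.63, 10.81 and 9.09 and the inner probe 11.22, 12.30, 11.77 and 11.64. The edge probe thus spread far wider than the inner probe on the same arrays. The probes correlated at r = 0.934 over 24 cortex and 0.845 over 24 brainstem arrays, against 0.466 over 23 hippocampus and 0.65 over 24 hypothalamus arrays.

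**Figure D4:**
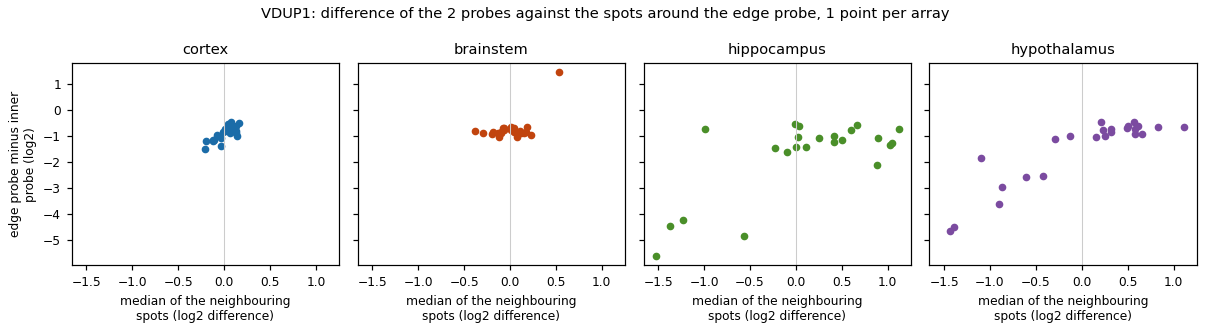
Difference between the edge and inner VDUP1 probes (vertical axis, log2) against the median difference of the spots around the edge probe from the other arrays of the group (horizontal axis, log2), with 1 point per array and 1 panel per region. In hippocampus and hypothalamus the probe difference reached -5.63 and -4.68 on arrays whose neighbouring spots were low, while it stayed between -1.53 and -0.49 in cortex. The brainstem point at 1.43 is the array with the dim area.

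In the brainstem, where both probes moved together in the fetus, VDUP1 read 11.12, 11.52, 11.34 and 10.99 at 100 d, 11.43, 12.04, 11.34 and 11.93 at 130 d and 12.10, 12.13, 12.30 and 12.11 at 145 d. The change over fetal life passed (adjusted p = 0.0184) and was lost without the dim area (adjusted p = 0.0533) and without the 145 d array with replicate number 3 (adjusted p = 0.0591). The mean at 145 d was 0.54 above 80 d. In the other regions no fetal change of VDUP1 passed. In cortex the difference from 80 to 130 d was -0.61 ± 0.25 (SE, adjusted p = 0.0595, or 0.0474 with the 75th percentile scaling), and the arrays did not overlap. In hippocampus it was 0.77 ± 0.51 with both probes and 0.09 with the inner probe, and in hypothalamus 0.87 ± 0.51 and 0.28, so most of either difference lay in the edge probe.

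Between regions VDUP1 differed over 80 to 130 d (adjusted p = 0.00194, or 8.5e-10 with the inner probe). It was 1.82-fold lower in cortex than in brainstem (adjusted p = 0.000346) and 1.45-fold lower in cortex than in hippocampus (adjusted p = 0.0314). With the inner probe alone the difference of cortex from hippocampus was -1.07 ± 0.14 (SE, adjusted p = 2.42e-09). The cortex and hypothalamus differed by -0.39 ± 0.20 (SE, adjusted p = 0.119). That pair passed with the local correction (-0.43, adjusted p = 0.0316), with the 75th percentile scaling (-0.57, adjusted p = 0.0394) and with the inner probe (-0.80 ± 0.14, adjusted p = 1.37e-06). The 3 genes with the most similar group means were IRF2 (r = 0.825), CHI3L1 (r = 0.809) and GNLY (r = 0.805). IRF2 had means from 6.80 to 7.59 and GNLY fetal means from 6.47 to 7.34. Both lie close to the lowest spot well above background, which read up to 6.74 on an array.

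At birth VDUP1 stood higher in each region, as the choice of the genes makes likely. In the cortex the arrays read 10.65, 10.71, 10.43 and 10.45 at 145 d and 11.17, 11.74, 12.22 and 12.82 on the first day after birth, a difference of 1.43 or 2.69-fold. In the brainstem they read 12.10, 12.13, 12.30 and 12.11 before and 12.46, 12.87, 13.67 and 13.66 after, a difference of 1.01, or 0.84 without the array that held the dim area. The brainstem difference was 1.13 with the local correction, and leaving out only the dim area moved the newborn mean from 13.17 to 13.35. The newborn arrays spread wider than the 145 d arrays in both regions. In the hypothalamus the arrays read 11.10, 12.05, 11.20 and 11.67 before and 12.71, 13.24, 13.17 and 13.79 after, a difference of 1.72, or 1.37 with the inner probe. In the hippocampus they read 12.32, 12.03, 9.84 and 12.45 before and 12.98, 13.77, 12.23 and 13.61 after, which overlapped, and the difference was 1.49, or 0.87 with the inner probe and 0.88 without the 145 d array with replicate number 3.

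**Figure D5:**
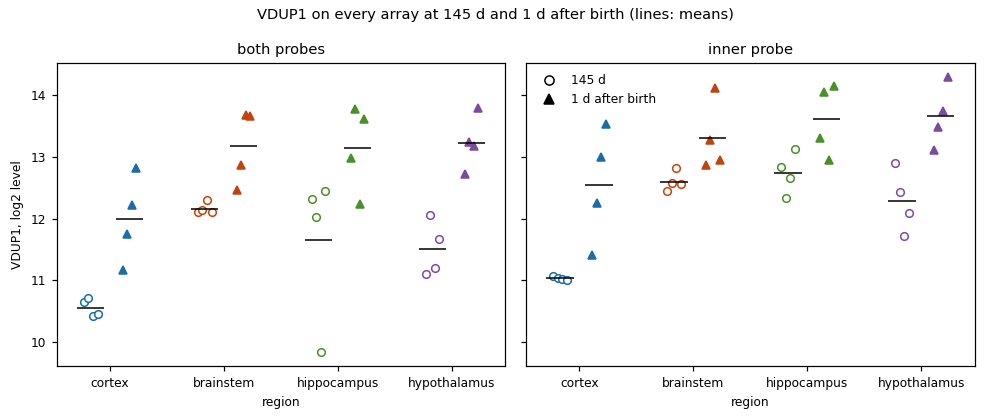
Log2 level of VDUP1 (vertical axis) on each array at 145 d (open circles) and 1 d after birth (filled triangles) by region (horizontal axis), from the mean of both probes on the left and the inner probe on the right, with lines at the means. The newborn arrays lie above the 145 d arrays without overlap in cortex, brainstem and hypothalamus on both sides and overlap in hippocampus, where the difference is 1.49 on the left and 0.87 on the right.

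HSD11B1 stood lower after birth. In the brainstem the newborn arrays read 8.30, 7.73, 7.25 and 6.77, all below the 145 d arrays, a difference of -0.95, or -0.70 without the array that held the dim area, -0.59 with the local correction and -1.50 with the brighter probe. With the brighter probe alone these groups overlapped, since the highest newborn array read 9.35 and the lowest 145 d array 9.23. In the hypothalamus the arrays read 9.94, 9.49, 9.50 and 9.70 at 145 d and 9.27, 9.48, 8.62 and 8.22 after birth, a difference of -0.76 with a gap of 0.011 between the groups. In cortex the difference was -0.19 and in hippocampus -0.45, and the groups overlapped in both. The hippocampal newborn arrays, at 8.12, 7.94, 7.88 and 7.99, were the closest together of its 6 ages. This depended on the processing. The 80 d arrays were closer together with the local correction (SD 0.10 against 0.20) and with the 75th percentile scaling (0.23 against 0.31).

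NFKBIA stood 0.68 higher after birth in the brainstem, 0.39 in the hypothalamus, 0.23 in the cortex and 0.22 in the hippocampus, with overlap in every region. Without the newborn array with replicate number 4 the value was 0.05 in cortex, 0.36 in brainstem and 0.21 in hypothalamus. With the local correction the values were -0.07 in hippocampus and 0.04 in hypothalamus. FBXO32 stood 0.69 higher after birth in the hypothalamus without overlap, 0.26 in cortex and 0.46 in brainstem with overlap, while in hippocampus the difference was -0.63 with overlap. Without the newborn array with replicate number 4 the FBXO32 difference was 0.06 in cortex and 0.22 in brainstem.

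Of the 4 members, the groups did not overlap at birth for 1 in cortex (VDUP1, higher), 2 in brainstem (VDUP1 higher, HSD11B1 lower), 0 in hippocampus and 3 in hypothalamus (VDUP1 and FBXO32 higher, HSD11B1 lower). Of all genes, 1.5% were higher without overlap and 1.96% lower in cortex, 5.53% and 2.96% in brainstem, 0.651% and 0.889% in hippocampus, and 6.97% and 5.02% in hypothalamus. As the members were chosen from this difference, the counts describe them and carry no test.

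Ordered over all 24 groups, the levels of each gene formed a near continuous series. Only 2 of 23 neighbours in the order of HSD11B1, 4 in that of FBXO32, 1 in that of NFKBIA and 1 in that of VDUP1 lay further apart than the larger of their SDs. HSD11B1 ran from 10.14 ± 0.16 in the hypothalamus at 100 d to 7.51 ± 0.66 in the newborn brainstem. FBXO32 ran from 12.75 ± 0.21 in the hippocampus at 145 d to 9.09 ± 0.08 there at 80 d. NFKBIA ran from 11.70 ± 0.74 in the newborn brainstem to 9.68 ± 0.20 there at 80 d, and VDUP1 from 13.23 ± 0.44 in the newborn hypothalamus to 10.32 ± 0.12 in the cortex at 130 d. The gap of VDUP1 was below the newborn hypothalamus, brainstem and hippocampus. NFKBIA and VDUP1 had the highest correlation of group means among the members, r = 0.801 over 24 groups, and HSD11B1 and NFKBIA the lowest, r = -0.597. The NFKBIA probe and the VDUP1 edge probe lie near the same corner, where neighbouring spots shifted in hippocampus and hypothalamus. The part of position in the r of these genes was not tested.

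Other genes of cortisol metabolism and action were counted from a list of 36, of which 13 were found by name on the array and 10 to 12 passed the filter. Over fetal life 5 of 10 changed in cortex, all higher at 145 d than at 80 d, and 4 of 11 in brainstem, 1 higher and 3 lower, where 41.4% and 31.6% of all genes changed, and limma called 0 in hippocampus and hypothalamus, where 0 and 2 had an unadjusted p under 0.05. In hippocampus and hypothalamus 2.45% and 11.2% of all genes changed. In brainstem HSD11B2, the cortisol-inactivating enzyme, fell by 1.02 ± 0.24 (SE, adjusted p = 0.00392) from 80 to 130 d, and it was well above background on 4 arrays at 80 d and 3 at 130 d. The receptor gene NR3C1 changed over fetal life in brainstem (adjusted p = 0.0113), with means of 6.82 ± 0.09 at 80 d and 7.37 ± 0.12 at 145 d. In cortex CRHBP, the binding protein of corticotropin-releasing hormone, rose by 1.86 ± 0.24 (SE) from 80 to 130 d and HSP90AA1, a chaperone of the receptor, by 0.91 ± 0.23. In brainstem CRHBP fell by 1.27 ± 0.31 over the same ages.

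Another 19 glucocorticoid responsive genes were found by name on the array, and all passed the filter. Over fetal life 8 changed in cortex (6 higher, 2 lower at 145 d) and 6 in brainstem (4 and 2). Of all genes, 41.4% and 31.6% did. The hippocampus and hypothalamus had 1 each, higher in the former and lower in the latter, against 2.45% and 11.2%. The shares in cortex and brainstem were near those of all genes. ATP1B1, a sodium pump subunit, rose from 80 to 130 d by 1.08 in cortex and by 1.27 in hippocampus. IGFBP5, a binding protein of insulin-like growth factors, fell by 1.02 in cortex, 1.32 in brainstem and 0.90 in hypothalamus. The list median of the difference from 130 to 145 d was 0.07, 0.01, 0.02 and 0.03 from cortex to hypothalamus, against a median of all genes within 0.01 of 0. No gene of the list was called between these ages by limma, while 2 in cortex and 2 in brainstem had an unadjusted p under 0.05.

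In the NF-kB list 8 of 16 tested genes changed over fetal life in cortex, 5 higher and 3 lower at 145 d. In cortex 41.4% of all genes changed. Elsewhere 1 gene of this list changed per region, higher each time. For the brainstem this was 1 of 17 tested, where 31.6% of all genes changed. The hypothalamus had 1 of 15 (all genes 11.2%) and the hippocampus 1 of 16 (all genes 2.45%). PTGS2, the inducible cyclooxygenase, rose by 1.43 in cortex from 80 to 130 d, and SOD2, mitochondrial superoxide dismutase, by 0.61. In the thioredoxin and glucose list 5 of 7 genes changed in cortex (4 higher, 1 lower), 4 in brainstem, where 31.6% of all genes did, and 2 in hypothalamus, where 11.2% did, and limma called 0 in hippocampus (1 at an unadjusted p under 0.05). GLUT-1, the glucose transporter of the blood-brain barrier, rose by 1.11 in cortex and 0.81 in brainstem from 80 to 130 d. SLC2A3, the neuronal glucose transporter, rose by 0.82 in cortex and 1.01 in hypothalamus, while TXN, thioredoxin itself, was not called in any region. In the list of ubiquitin ligase and insulin or FOXO signaling 6 of 12 changed in cortex (3 higher, 3 lower), 3 in brainstem (1 and 2) and 1, lower, in hypothalamus, and limma called 0 in hippocampus (2 at an unadjusted p under 0.05). The shares of all genes were 41.4% in cortex, 31.6% in brainstem, 11.2% in hypothalamus and 2.45% in hippocampus. AKT1, a kinase of insulin signaling, fell by 0.67 in brainstem from 80 to 130 d and fell by 0.98 from 130 to 145 d.

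Markers of other cells were read beside the members. GFAP, the astrocyte filament, rose from 80 to 130 d in all 4 regions, by 2.29, 2.00, 1.43 and 1.74 from cortex to hypothalamus. Over fetal life 41.4%, 31.6%, 2.45% and 11.2% of all genes changed in that order. So did 4, 3, 2 and 2 of the 4 astrocyte markers found by name. All of these were higher at 145 d than at 80 d except EAAT1, a glutamate transporter, in brainstem, where the change over fetal life passed (adjusted p = 0.0275) with a difference between 145 and 80 d of -0.0028. HBB, a globin of red blood cells, rose in cortex, brainstem and hypothalamus by 1.74, 2.06 and 1.90 from 80 to 130 d. AHSP, the chaperone of alpha globin and the other blood marker, also changed over fetal life in cortex and brainstem, where its 145 d mean lay -0.52 and -1.13 from that at 80 d. TTR, the choroid plexus marker, had group means of 16.04 to 17.85 in brainstem and 9.74 to 11.97 in cortex and did not pass in any region. Its fetal differences were largest in hippocampus, at -2.56 from 80 to 130 d and 2.84 from 130 to 145 d. In brainstem the pituitary hormone PRL fell by 2.35 from 80 to 130 d and POMC, the precursor of corticotropin, rose by 0.98 (adjusted p = 0.0119). Over fetal life PRL passed (adjusted p = 0.0043) and POMC had an adjusted p of 0.0549.

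Of 3 meningeal markers COL1A2, COL3A1 and DCN all changed in cortex and none elsewhere. Of 4 endothelial markers 3 changed in cortex and 1 in brainstem, and of 2 microglial markers ITGAM changed in cortex and hypothalamus. The shares of all genes were 41.4%, 31.6%, 2.45% and 11.2% in the order cortex, brainstem, hippocampus, hypothalamus. No muscle marker passed, and none had an unadjusted p under 0.05. None of the 7 neuron markers was found by name, which does not show that the array lacks them. The neuronal share of the samples was not checked. The part of these cells in the members' changes was not tested.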

How the data were processed

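RNA of 4 brain regions at 6 ages was labeled with Cy3 and hybridised to 95 Agilent sheep arrays, 1 sample per array. The authors deposited the scanner output of each array, with the mean and local background intensity of each spot as scanned, not normalized between arrays. They also deposited a table of log2 values, which their methods describe as background corrected, quantile normalized and filtered with limma. It was used here as an alternative, and its background method is not given in the sources used here.

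From the intensity values, background was corrected by normexp with an offset of 50, all arrays were quantile normalized and log2 transformed, and probes of a gene were averaged. Within a region, probes had to exceed the negative controls' 95th percentile by a factor of 1.1 on 4 or more arrays. This left 12899 cortex, 12771 brainstem, 12686 hippocampus and 12927 hypothalamus genes, and 12314 in the fit of all regions. limma 3.58.1 in R 4.3.3 was fitted in each region to all 6 ages with lmFit and eBayes. The ages 100 to 145 d were tested together against 80 d by a moderated F test, and 130 d against 80 d and 145 d against 130 d by contrasts. Regions were compared in a fit of all arrays by their mean over 80 to 130 d and by interactions. P-values were two-sided and Benjamini-Hochberg adjusted over all genes of a comparison, and pairs of regions over all genes for each pair. An adjusted p under 0.05 was called. Neither the animal behind an array nor its twin is labelled, so the fit of all regions treats the arrays as independent although the methods took the 4 regions from the same animals. Age and replicate number as a random block (consensus correlation 0.0357) was an alternative.

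The genes named were the 4 members, the 3 named genes most like each by Pearson's r over the group means, at most 4 changed genes per pathway list and region with the largest change, and the marker genes. The members, lists and rules were chosen with earlier results of these data known. The alternatives were an offset of 16, scaling of the processed signal by its 75th percentile, the deposited log2 table, no filter, quantile normalization by region, 1 probe per gene or every probe alone, the dim area left out, slide or replicate number as a block, trend and robust eBayes, an adjusted p under 0.0001, and each array left out. A local correction, the median of spots within 8 rows and 6 columns, was added after seeing the data. The fit within a region was tested on simulated data, and the other steps were not.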

Additional observations from a re-analysis of the deposited data

Results flagged for a closer look

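On 5 of 92 groups tested, 1 array stood apart from the other 3 of its group by more than Dixon's critical value, which chance gives in about 1 group in 20. FBXO32 read 12.25 on the brainstem array of 130 d with replicate number 1, where the others had a median of 11.92, and 8.98 on the hippocampus array of 80 d with replicate number 1, against 9.12. NFKBIA read 9.72 on the cortex array of 100 d with replicate number 4, against 10.06. VDUP1 read 12.30 on the brainstem array of 145 d with replicate number 3, against 12.11, and 9.84 on the hippocampus array of 145 d with replicate number 3, against 12.32. On this last array the edge probe read 7.02 and the inner probe 12.65.

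The change of FBXO32 from 80 to 130 d differed between regions (adjusted p = 0.000753), as described above.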

How the results depend on the processing

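No called change reversed under any alternative, and FBXO32 passed the fetal test and the test of 130 d against 80 d in every region under each of them at an adjusted p under 0.05. Among members called per comparison, 199 of 215 counts with all arrays kept stayed within 1.5 times. From 80 to 130 d in cortex the count was 2 in place of 1 with the 75th percentile scaling and with the replicate block, VDUP1 being added. Over fetal life at an adjusted p under 0.0001 it was 1 in brainstem and 1 in hippocampus. From 130 to 145 d in brainstem it was 1 in place of 0 with the 75th percentile scaling, the deposited table, the dim area left out, the local correction and the slide block, NFKBIA each time, with adjusted p from 0.012 to 0.0494. With the replicate block it was 1 over fetal life in hippocampus, where HSD11B1 was lost (adjusted p = 0.0545). With the local correction it was 2 from 80 to 130 d in hippocampus. At birth the arrays of 1 member did not overlap in brainstem with the brightest probe, where HSD11B1 was lost, and of 1 in hippocampus with the 75th percentile scaling. Members whose change from 80 to 130 d differed between regions numbered 0 at an adjusted p under 0.0001, 2 with the local correction and 2 with every probe alone.

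Leaving out 1 array at a time gave 2 to 3 members over fetal life in cortex, 3 to 4 in brainstem, 1 to 2 in hippocampus and 1 to 1 in hypothalamus. From 80 to 130 d it gave 1 to 2 in cortex and brainstem and 1 to 1 in the others, and from 130 to 145 d 0 to 1 in brainstem and 0 to 0 elsewhere. The second cortex member was VDUP1, without replicates 1 or 3 of 80 d or 1 or 4 of the newborns, and the second brainstem member HSD11B1, without newborn replicates 1 or 4. At birth 1 to 2 members did not overlap in cortex, 2 to 2 in brainstem, 0 to 1 in hippocampus and 3 to 3 in hypothalamus. Between regions 3 to 3 differed in level, 1 to 2 in the change from 80 to 130 d and 0 to 0 from 130 to 145 d.

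Replicate numbers were tested as pairs. Over 235 pairs of arrays of a region with the same number the median correlation of deviations was 0.094, against -0.038 for 705 other pairs. Of these, 116 of the 235 and 209 of the 705 were over 0.1. Over 141 pairs of an age in different regions with the same number it was 0.056, against -0.048 for 423 other pairs, and 56 of the 141 and 91 of the 423 were over 0.1. Pairs with the same number were over 0.1 more often in both comparisons, but not every such pair was. This cannot exclude shared animals. The numbers were taken as names, and whether some mark shared animals was not settled. The replicate block changed no call but those of VDUP1 in cortex and HSD11B1 in hippocampus given above. With age and number as a random block across regions, the tests of the regions gave the same calls for the 4 members. Among fetal changes, uncalled values changed sign in 37 of 1668 comparisons, from at most 0.074 in size to at most 0.639, the latter for NFKBIA from 80 to 130 d in hypothalamus with the 75th percentile scaling. At birth 4 of 304 did, each NFKBIA in hippocampus, at -0.19 with the 75th percentile scaling, -0.07 with the local correction, -0.04 with the slide block and -0.04 without replicate 3 of 145 d. With 4 arrays a group and the neighbour shifts near the corner, small differences of NFKBIA and VDUP1 in hippocampus and hypothalamus could not be told from position. The cause of the differences between settings was not tested.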

Other observations

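Among the newborn arrays, NFKBIA was lowest on the array with replicate number 1 in all 4 regions, at 10.18, 11.06, 10.67 and 10.65 in the order cortex, brainstem, hippocampus, hypothalamus. It was highest on that with number 4 in cortex, brainstem and hypothalamus, at 11.27, 12.67 and 11.68. HSD11B1 was lowest on number 4 in the same 3 regions, at 7.40, 6.77 and 8.22. The brainstem array of number 4 is the one whose dim area held the brighter HSD11B1 probe. With the local correction HSD11B1 was lowest on number 3 in cortex and brainstem and on number 4 in hypothalamus. VDUP1 was lowest on number 1 in these regions, at 11.17, 12.46 and 12.71. The labels do not say that these arrays came from the same lambs.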
